A study of Homo sapiens with 6 samples.

Results

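The 10 genes described here encode ligands, receptors, signal mediators and target genes of transforming growth factor beta (TGF-beta), namely TGFB1, TGFB2, TGFB3, TGFBR1, TGFBR2, TGFBR3, SMAD3, SKIL, TGFBI and PMEPA1. They were chosen by name, with earlier results of these data known. Every probe set that the platform annotation assigned to 1 of them alone was taken. This gave 29 of 54613 probe sets and 10 of 19775 genes. A probe set is a group of short probes on the array that are read together as 1 intensity and usually lie towards the 3' end of a transcript. The cells were MDA231-LM2, a line with a high capacity to metastasize to lung that was derived from MDA-MB-231, a human breast cancer line, and their RNA was hybridized to Affymetrix U133 Plus 2.0 arrays. The oncospheres were 3 cultures collected after 4 days on ultra-low adhesive plates, in serum-free HuMEC medium to which insulin at 5 μg/ml, the growth factors EGF at 20 ng/ml and bFGF at 10 ng/ml, and 2% B27 supplement had been added. The monolayer was 3 attached cultures in DMEM with 10% fetal bovine serum, collected 48 h after a change of medium. The comparison addressed how expression differs between sphere culture and attached culture of the same cells. Adhesion, medium with its supplements, and time differed together between the groups, and their effects cannot be told apart.

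TGF-beta ligands are secreted in a latent form that is held in the matrix and must be released before it can act. The freed ligand binds the type II receptor, which activates the type I receptor, and this in turn phosphorylates SMAD2 and SMAD3. These SMAD proteins join SMAD4, enter the nucleus and change transcription. The cytokine restrains growth of many epithelial cells, whereas in advanced breast cancer it is known for promoting invasion and metastasis.

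Arrays of 1 group were alike, with Pearson's r over probe sets of 0.993 to 0.996, against 0.966 to 0.973 between groups, and oncosphere replicate 2 stood apart from the other arrays on the second principal component (6.89% of the variance). Without that array, 7 of the 10 genes described here were called higher and 1 lower, and the share over all genes was not counted there. Vimentin, VIM, known to be abundant in MDA-MB-231 cells, read 20819 ± 319.9 in oncospheres and 20145 ± 202 in monolayer (SD, n = 3 each), whereas 2 of 4 markers known to be low in this line, CDH1 and PGR, were dim in both groups, which here means a mean below the median of all probe sets (113.5). ESR1, the estrogen receptor, was above that median, with 125 ± 6.24 in oncospheres and 130.3 ± 12.4 in monolayer. AXL, a receptor kinase common in lines of this kind, was lower in oncospheres, with 2301 ± 373, than in monolayer, with 8441 ± 204, and EPCAM, an epithelial marker and the fourth of those known to be low, was above the median in both, with 444 ± 46.3 in oncospheres and 561 ± 12.7 in monolayer. Of the markers of other cell types, 1 of 3 measured in each list was higher in oncospheres, namely CD14 for leukocytes, PECAM1 for endothelium and LUM for fibroblasts. The share of all genes called higher was 17.3%, and 3 markers per list are too few to compare with it. The summed levels were 352 to 427 in oncospheres and 324 to 339 in monolayer for leukocyte markers, 599 to 829.9 in oncospheres and 349.9 to 359 in monolayer for endothelial markers, and 383 to 467 in oncospheres and 303 to 313 in monolayer for fibroblast markers. Of these 9 markers, PTPRC, CDH5, VWF and PDGFRA were dim in both groups, whereas CD3E (127 in oncospheres and 116 in monolayer) and PDGFRB (137 in oncospheres and 146 in monolayer) were above the median in both and not called, and the part of these levels in the results was not tested.

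In oncospheres, RNA of all 3 receptors and of both target genes was higher, while RNA of the ligand TGFB2 was lower. By the brightest probe set of each gene, 7 of the 10 genes rose, against 17.3% of all genes, and 1 fell, against 17.5% of all genes (limma, adjusted p below 0.05). Since the genes were chosen with earlier results of these data known, these shares describe them and are not a test. TGFBI rose 4.25-fold, PMEPA1 3.72-fold, TGFBR2 2.38-fold and TGFBR1 2.05-fold, and TGFB2 fell to a level 3.02-fold lower. SMAD3 and SKIL were not called. The median log2 change of the 10 genes was 0.74, and that of all genes was -0.02. By the brightest probe set, 0 of the 10 genes and 6853 of all 19775 genes were dim, so the 2 sets differ in brightness. Over the 29 probe sets, 12 were higher, 8 were lower and 9 were not called. Of all probe sets on the arrays, 14.5% were called higher and 14.2% lower. In whole cultures, a smaller share of cells expressing a gene and less RNA of it per cell cannot be told apart.

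**Figure D1:**
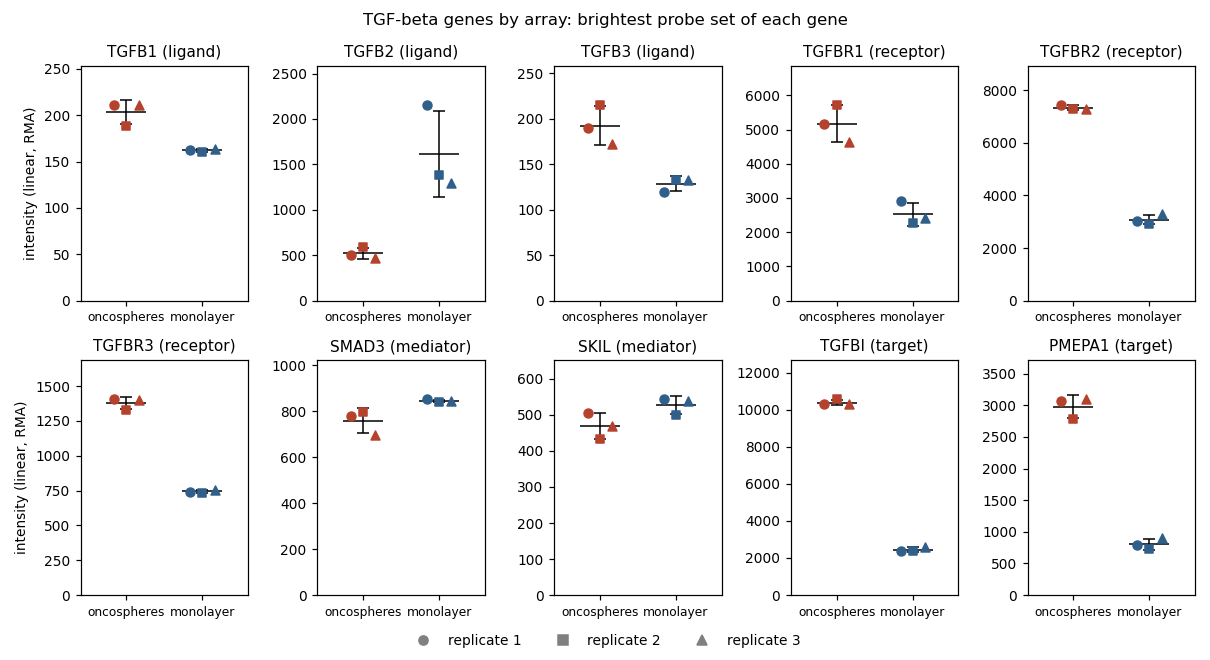
Intensity of the brightest probe set of each gene on a linear axis from 0, with oncospheres in red and monolayer in blue. Symbols are the 3 replicates of a group, and the bar with whiskers is the mean ± SD. Oncosphere and monolayer values of SKIL overlap, and TGFB2, SMAD3 and SKIL have the lower mean in oncospheres. The share of all genes without overlap was not counted.

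Promoter sequences are shown for the gene that fell, TGFB2, and for the genes with the largest increases, TGFBI and PMEPA1, because the account of the 10 genes turns on them. They come from RefSeq on GRCh38.p14 and run 5′ to 3′ in the direction of transcription, from 250 bases before a transcription start to 50 bases after it. Capitals mark 4 motifs searched on both strands, which were CAGAC, a SMAD-binding sequence, TGANTCA, the AP-1 site, CGTCA, the core of the site of CREB and ATF factors, and TATAAA, the TATA box. PMEPA1 has 4 such windows, of which the one with the most matches is shown, a choice made after the letters were seen.
TGFB2, chr1:218345086-218345385, plus strand: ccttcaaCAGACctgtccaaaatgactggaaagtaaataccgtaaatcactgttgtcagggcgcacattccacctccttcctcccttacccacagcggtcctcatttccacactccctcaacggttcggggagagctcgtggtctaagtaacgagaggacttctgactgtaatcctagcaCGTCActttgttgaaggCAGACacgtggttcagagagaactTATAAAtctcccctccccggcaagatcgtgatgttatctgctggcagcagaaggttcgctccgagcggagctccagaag
TGFBI, chr5:136028738-136029037, plus strand: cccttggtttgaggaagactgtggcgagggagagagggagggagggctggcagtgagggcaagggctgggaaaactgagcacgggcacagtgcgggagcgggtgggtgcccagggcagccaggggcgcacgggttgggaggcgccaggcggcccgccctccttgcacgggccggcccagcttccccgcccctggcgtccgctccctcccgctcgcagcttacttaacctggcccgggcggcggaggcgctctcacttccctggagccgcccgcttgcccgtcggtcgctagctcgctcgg
PMEPA1, chr20:57709966-57710265, minus strand: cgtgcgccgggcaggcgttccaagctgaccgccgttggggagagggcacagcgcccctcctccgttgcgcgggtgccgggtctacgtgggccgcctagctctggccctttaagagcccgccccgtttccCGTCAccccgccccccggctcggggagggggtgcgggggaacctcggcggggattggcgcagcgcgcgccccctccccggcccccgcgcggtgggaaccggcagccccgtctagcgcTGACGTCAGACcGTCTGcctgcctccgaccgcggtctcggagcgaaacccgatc

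The TGFB2 window held 2 CAGAC matches, 1 CGTCA match and 1 TATAAA match. The PMEPA1 window held 2 CAGAC and 3 CGTCA matches, of which a pair of CGTCA matches overlapped on opposite strands and 1 of these overlapped a CAGAC match. The TGFBI window held no match to any of the 4. All 10 genes had a window, 26 in all, and 6 genes had at least 1 window with CAGAC. A gene had from 1 to 8 windows, and the share of all genes with such a window was not counted. Of the 26 windows, 13 held CAGAC, 2 TGANTCA, 6 CGTCA and 2 TATAAA. Over all 35116 windows of the same length, 45.3% held CAGAC, 7.7% TGANTCA, 24.6% CGTCA and 11.5% TATAAA. The match counts describe letters only, and several windows of 1 gene overlap.

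The 3 ligand genes moved in different directions. TGFB2 encodes the ligand that needs the coreceptor betaglycan for efficient binding to the type II receptor. Its brightest probe set had intensities of 503, 590.1 and 472 in oncospheres, against 2154, 1386 and 1299 in monolayer. All 3 oncosphere arrays lay below every monolayer array, and monolayer replicate 1 stood above the other monolayer arrays. The log2 change was -1.60 (SE 0.18, adjusted p = 3.54e-04), and it was -1.37 without monolayer replicate 1 (adjusted p = 2.78e-04). Only 48 of the 19775 genes, TGFB2 included, had a called decrease at least as large.

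The other 4 TGFB2 probe sets were also called lower, with no overlap between the groups in any of them. How many of all probe sets were without overlap was not counted. A dimmer TGFB2 probe set, 209909_s_at, gave 196, 165 and 215 in oncospheres and 691, 678 and 709 in monolayer, a log2 change of -1.86. Here monolayer replicate 1 did not stand apart from the other monolayer arrays. The dimmest, 220406_at, had a log2 change of -0.30, with means of 98.1 ± 8.08 in oncospheres and 121 ± 4.83 in monolayer (SD, n = 3 each), around the median intensity of all probe sets (113.5). Its size is uncertain, since no array held a value below 48.02 and changes near that level are compressed on the log2 scale.

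TGFB3, the ligand best known for its role in palate development, showed the opposite direction. It had intensities of 189.7, 215 and 172 in oncospheres and of 119, 133 and 133 in monolayer. The groups did not overlap, and the log2 change was 0.58 (SE 0.09, adjusted p = 0.00186), or 1.5-fold. The log2 change was 0.35 with both probe sets averaged and 1.01 with the 5th percentile of each array subtracted. The second TGFB3 probe set was dim and was not called (log2 change 0.12).

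TGFB1, the ligand made by most cells, gave an answer that depended on the probe set. The brighter one, 203085_s_at, had 211, 188 and 211 in oncospheres and 162, 159.8 and 164 in monolayer, with no overlap (log2 change 0.33, SE 0.06, adjusted p = 0.0055). The other, 203084_at, had 108, 114 and 92.9 in oncospheres and 116, 112 and 114 in monolayer. These arrays overlapped around the median intensity of all probe sets (113.5), below the levels of the brighter probe set. The log2 change was -0.13 (adjusted p = 0.32). A probe set whose name ends in _s_at or _x_at can match several transcripts, and without such probe sets TGFB1 was not called and its direction turned (adjusted p = 0.343). The mean of both probe sets had a log2 change of 0.10 (adjusted p = 0.151).

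All 3 receptor genes were higher in oncospheres. TGFBR2 encodes the type II receptor, the kinase that binds ligand first. Its brighter probe set read 7441, 7287 and 7286 in oncospheres and 3043, 2926 and 3279.8 in monolayer. The groups were far apart beside the spread within each, with a log2 change of 1.25 (SE 0.06, adjusted p = 6.44e-06). The dimmer TGFBR2 probe set was called too, at a log2 change of 0.85, although oncosphere replicate 2 (523) lay above replicates 1 (375) and 3 (369).

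TGFBR1 encodes the type I receptor, the kinase that phosphorylates SMAD2 and SMAD3. Intensities of its brightest probe set were 5155, 5717 and 4635 in oncospheres and 2908, 2265 and 2418 in monolayer. No oncosphere array came down to the monolayer range, and the log2 change was 1.03 (SE 0.11, adjusted p = 2.48e-04). The second TGFBR1 probe set rose by 1.15. The third missed the threshold with a log2 change of 0.21 (adjusted p = 0.0517), although its oncosphere values of 167, 165 and 161 all lay above the monolayer values of 154, 135 and 139.

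TGFBR3 encodes betaglycan, the coreceptor that presents ligand to the type II receptor. It read 1404, 1326 and 1403 in oncospheres, against 739, 735 and 756 in monolayer. Replicates were close within each group, and the log2 change was 0.89 (SE 0.06, adjusted p = 1.75e-05). Its second probe set had nearly the same log2 change of 0.91, with means of 1016 ± 13.5 in oncospheres and 543 ± 45.9 in monolayer (SD, n = 3 each).

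The nuclear mediators showed small differences. SMAD3 is the receptor-activated SMAD that binds DNA. Its brightest probe set had 782, 799 and 698 in oncospheres and 852, 842 and 846 in monolayer. Every oncosphere value lay below the monolayer values, but the log2 change of -0.16 (95% confidence interval -0.31 to -0.01) was not called after adjustment (adjusted p = 0.12). Of the other 3 SMAD3 probe sets, 205398_s_at (log2 change -0.65, adjusted p = 0.0114) and 205397_x_at (log2 change -0.30, adjusted p = 0.0225) were called lower and 205396_at was not (log2 change -0.18, adjusted p = 0.0816). In all 4 the groups did not overlap, and the mean of the 4 was called (log2 change -0.32, adjusted p = 0.00572). The share of all probe sets without overlap was not counted.

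SKIL encodes SnoN, a corepressor that binds SMAD proteins and is itself induced by TGF-beta. The brightest SKIL probe set read 505, 434 and 470.3 in oncospheres and 543, 499 and 539 in monolayer. Oncosphere replicate 1 lay within the monolayer range, and the log2 change was -0.17 (95% confidence interval -0.34 to -0.00, adjusted p = 0.133). The other 4 probe sets of SKIL were dim, and 1 of them, 206675_s_at, was called lower (log2 change -0.44, adjusted p = 0.00116). The mean of all 5 had a log2 change of -0.16 (adjusted p = 0.0236).

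**Figure D2:**
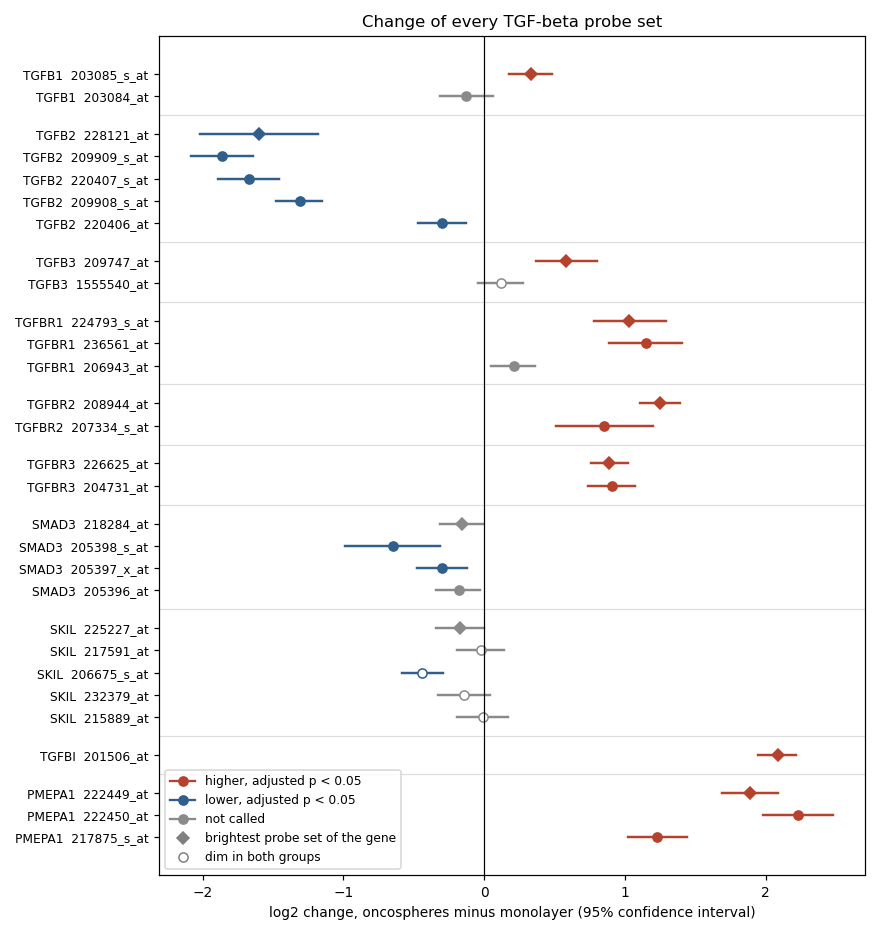
Log2 change, oncospheres minus monolayer, of each of the 29 probe sets with its 95% confidence interval, grouped by gene and ordered by brightness within a gene. Red marks probe sets called higher (12), blue those called lower (8) and grey those not called (9), diamonds mark the brightest of a gene and open symbols dim ones; the 5 TGFB2 probe sets all lie left of 0, and those of TGFBR1, TGFBR2, TGFBR3, TGFBI and PMEPA1 all lie right of it.

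Both target genes were among the larger increases on the arrays. TGFBI encodes a secreted matrix protein named for its induction by TGF-beta. Its single probe set read 10296, 10549.5 and 10289 in oncospheres and 2363, 2382 and 2591 in monolayer. The spread within a group was small beside the distance between groups, with a log2 change of 2.09 (SE 0.06, adjusted p = 1.18e-06). There were 71 of 19775 genes, TGFBI included, with a called increase at least as large.

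PMEPA1 encodes a membrane protein that is induced by TGF-beta and sequesters SMAD2 and SMAD3. Its brightest probe set had intensities of 3071, 2777 and 3093 in oncospheres and 790.1, 728 and 895 in monolayer. The groups did not overlap, and the log2 change was 1.89 (SE 0.09, adjusted p = 5.04e-06). The other PMEPA1 probe sets rose by 2.23 and 1.23 on the log2 scale. In all 3, oncosphere replicate 2 was the lowest oncosphere array, and it stayed above every monolayer array.

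Other genes of the pathway were read from 6 lists of 83 genes. The lists were also chosen with earlier results of these data known, so counts over them are not a test. A probe set of their own was found for 78 genes. Of these, 35 were higher and 13 lower by the brightest probe set, where 17.3% of all genes were higher and 17.5% lower, so that the count of lower genes was near the share over all genes. Each list held from 0 to 3 dim genes, against 6853 of all 19775 genes, so the lists and all genes differ in brightness. Shares over all genes are therefore not a reference of equal brightness for any of the lists. Of 13 genes that store or activate the latent ligand, 7 rose, 1 fell and 5 missed the threshold, and their median log2 change was 0.55. ITGB8, an integrin subunit that binds latent TGF-beta, rose 5.92-fold, with 1176, 1014 and 1169 in oncospheres and 176, 189 and 202 in monolayer. The mean of the 5 ITGB8 probe sets had a smaller log2 change of 0.71. LTBP1, which ties the latent ligand to the matrix, rose 3.73-fold, with 2696, 2214 and 2388 in oncospheres and 643, 669.8 and 638 in monolayer. FBN1, the microfibril protein that anchors LTBP proteins, rose 3.08-fold, or by 0.84 on the log2 scale without _x_at and _s_at probe sets. THBS1, thrombospondin-1, which can activate the latent ligand, was the 1 gene of this list that fell, with a log2 change of -0.93 and means of 1925 ± 373 in oncospheres and 3635 ± 173 in monolayer (SD, n = 3 each).

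Of 12 regulators at the receptor, 3 were higher, 3 lower and 6 not called, near the shares over all genes (17.3% higher and 17.5% lower), and the median log2 change was -0.06. BAMBI, a decoy receptor without kinase activity, rose by 1.31, with 1064, 749 and 895 in oncospheres and 364, 347 and 375 in monolayer. NRP1, a coreceptor of several growth factors, rose by 0.68. SMURF2, a ubiquitin ligase that removes receptors and SMADs, had a log2 change of -0.41, but the value was 0.01 without _x_at and _s_at probe sets. TGFBRAP1, which binds receptors, had a log2 change of -0.39 and this probe set lost its call without oncosphere replicate 1 (adjusted p = 0.0574), oncosphere replicate 2 (adjusted p = 0.0505) or monolayer replicate 3 (adjusted p = 0.0756). Endoglin, the coreceptor encoded by ENG, was not called (log2 change -0.11).

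Among SMADs and their regulators, 5 of 14 were higher, 2 lower and 7 not called, with a median log2 change of 0.10. Over all genes, 17.3% were higher and 17.5% lower, and the count of lower genes was near that share. NEDD4L, a ubiquitin ligase for activated SMAD2 and SMAD3, fell by 1.75, with 488, 554 and 504 in oncospheres and 1729, 1777 and 1689.8 in monolayer. Another NEDD4L probe set, nearly as bright, had a log2 change of -0.98, and it became the brightest when monolayer replicate 1 (-0.96), 2 (-1.01) or 3 (-0.97) was left out, while the first kept values of -1.75, -1.73 and -1.77. TGIF1, a corepressor of SMAD2, rose by 0.85 and its relative TGIF2 fell by 0.53. The inhibitory SMAD7, a feedback target of the pathway, had 317, 305 and 493 in oncospheres and 258, 243 and 186 in monolayer. Its log2 change was 0.68 (adjusted p = 0.0316), and the call was lost without oncosphere replicate 3 (0.46, adjusted p = 0.0507), monolayer replicate 2 (0.73, adjusted p = 0.0636) or monolayer replicate 3 (0.54, adjusted p = 0.106). SMAD2 lay at the threshold (log2 change 0.19, adjusted p = 0.0498) and SMAD4 was not called (log2 change -0.19, adjusted p = 0.155).

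Of 23 genes known to be induced by TGF-beta, 16 rose, 3 fell and 4 missed the threshold, and their median log2 change was 0.90. Over all genes, 17.3% were higher and 17.5% lower, with a median of -0.02. The count of genes that fell was near the share over all genes. By the brightest probe set, 3 of the 23 genes were dim, against 6853 of all 19775 genes, so the 2 sets differ in brightness. Fibronectin, FN1, rose 5.57-fold, with 14205, 14399.6 and 14108 in oncospheres and 2454, 2617 and 2607 in monolayer, and ANGPTL4, an inhibitor of lipoprotein lipase, rose 4.19-fold. IL11, a cytokine induced by TGF-beta in breast cancer cells that metastasize to bone, moved the other way, with 164, 133 and 162 in oncospheres and 1227, 1068 and 891 in monolayer. CCN2, a secreted matricellular protein, had 1032, 1248 and 964 in oncospheres and 5484, 5381 and 5106 in monolayer. The third gene of this list that fell was TGM2, a transglutaminase (log2 change -1.39), which is named because it completes the count. Many of these genes answer to other signals as well, and the list mixes them. Without _x_at and _s_at probe sets 16 genes of the list could be measured, of which 7 were called higher and 4 lower. The share over all genes was not counted in that setting.

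Genes that TGF-beta is known to repress in epithelial cells were few, with 3 higher and 2 lower of 5. Over all genes, 17.3% were higher and 17.5% lower, and 5 genes are too few to compare with these shares. MYC, a transcription factor that drives growth, had a log2 change of -1.02 and the cell cycle phosphatase CDC25A one of -1.04. ID3, an inhibitor of basic helix-loop-helix factors that BMP ligands induce, rose by 1.68, with 1354, 1339.9 and 1238 in oncospheres and 396, 429 and 400.4 in monolayer, and ID2 rose by 0.71.

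The activin arm, which shares SMAD2 and SMAD3 with TGF-beta, showed 1 gene higher, 2 lower and 8 not called of 11, with a median log2 change of -0.04, and was near or below the shares over all genes (17.3% higher and 17.5% lower). Follistatin, FST, which binds and blocks activin, had 441, 453 and 439 in oncospheres and 1147, 1253 and 1197 in monolayer (log2 change -1.43). FSTL3, a related antagonist, had a log2 change of -0.40. The type I receptor ACVR1C was called higher (log2 change 0.26, adjusted p = 0.0215), but not when oncosphere replicate 1 (adjusted p = 0.0685), oncosphere replicate 3 (adjusted p = 0.0758), monolayer replicate 1 (adjusted p = 0.0683) or monolayer replicate 2 (adjusted p = 0.0718) was left out.

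**Figure D3:**
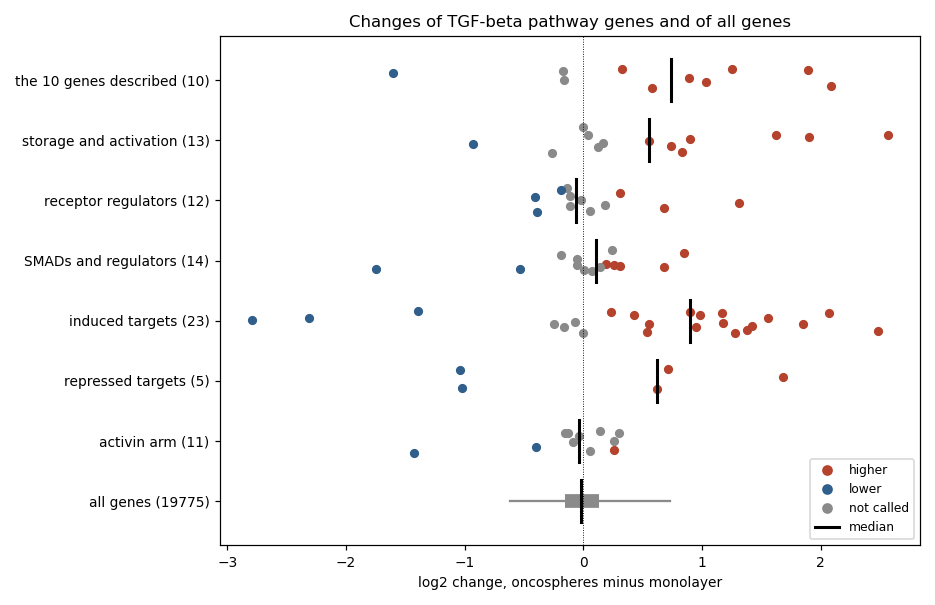
Log2 change, oncospheres minus monolayer, of each measured gene (points) in the 10 genes described and in the 6 pathway lists, with the median of each as a black bar and calls in color. For all genes the grey box spans the middle of the distribution and the line runs from -0.62 to 0.73 between the 5th and 95th percentiles; the medians of the induced targets (0.90), the 10 genes (0.74), the repressed targets (0.62) and the storage and activation genes (0.55) lie right of that box.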

How the data were processed

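For each probe set, the deposited table held 1 intensity from each of 6 arrays, 3 per culture form, grouped by the titles in the labels, which call the replicates of a group biological. The authors had normalized the raw data by RMA, per the methods of the study, and the submitters' processing notes name affy, with its version not given in the sources used here. The values were on a linear scale (array medians 112.6 to 114.1), so log2 was taken first. After 62 control probe sets were left out, 54613 were fitted with limma 3.58.1 in R 4.3.3 (lmFit and eBayes, two-sided, Benjamini-Hochberg adjustment over all of them), and calls were made where the adjusted p was below 0.05. Oncospheres minus monolayer gives the sign. Since all cultures were of 1 cell line, p-values reflect the variation among these cultures only, and the number of arrays limits the precision. The arrays had 1 color, and no slide or scan batch was used as a block, since none was given in the sources used here.

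Each gene was read from its brightest probe set by mean log2 value among those with 1 symbol (41091 probe sets had 1 symbol, 1801 several and 11721 none), with symbols updated through gene identifiers in RefSeq of GRCh38.p14. Levels were not compared between probe sets. The genes and lists were chosen with earlier results of these data known. Named were the 10 genes with every probe set, up to 4 called genes of each list with the largest change in both directions, and SMAD2, SMAD4, SMAD7, ENG and LTBP1. Listed genes without a probe set of their own are not reported here. The fit was tested on simulated data. The alternatives were other normalizations, the 5th percentile of each array subtracted with a floor of 16, dim probe sets or _x_at and _s_at probe sets left out, another prior, array weights, a replicate block, probe sets averaged, adjustment over genes, an adjusted p below 0.01, a minimum of 1.5-fold and each array left out in turn.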

Additional observations from a re-analysis of the deposited data

How the results depend on the processing

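Of the 10 genes, 7 were called higher and 1 lower when any 1 array was left out. Shares over all genes were not counted in any of the 19 alternatives, so counts given for them stand without that reference. TGFB2, TGFBR1, TGFBR2, TGFBR3, TGFBI and PMEPA1 kept their direction and their call in all 19 alternatives, with log2 changes of -1.73 to -1.35, 0.80 to 1.15, 1.05 to 1.34, 0.88 to 0.96, 2.06 to 2.17 and 1.78 to 1.98. With a minimum of 1.5-fold TGFB1 (0.33) and TGFB3 (0.58) were no longer called, and TGFB3 ran from 0.35 to 1.01 over the alternatives. TGFB1 was -0.13 without _x_at and _s_at probe sets and 0.10 with probe sets averaged, where SMAD3 (-0.32) and SKIL (-0.16) were called, so that 3 of the 10 were lower. Probe sets of these genes called lower, 8 of 29, numbered 5 with the 5th percentile subtracted, at an adjusted p below 0.01 and at 1.5-fold, and 2 of 19 without _x_at and _s_at probe sets, when fewer were measured. The pathway lists held 22 genes higher of 59 measured without _x_at and _s_at probe sets, and 8 lower at 1.5-fold. SMURF2 turned to 0.01 without those probe sets, and FBN1 (0.84), FN1 (1.71) and NEDD4L (-0.98) were smaller. With probe sets averaged ITGB8 (0.71) and NEDD4L (-0.70) were smaller. With the 5th percentile subtracted IL11 (-3.49) and ID2 (1.32) were larger, whereas NEDD4L was -1.05. Whether NEDD4L was then read from another probe set was not checked. The brightest probe set was chosen anew in each setting. Leaving out 1 array changed it in some cases for NEDD4L, TGFBRAP1 and FN1, and for none of the 10 genes. Without _x_at and _s_at probe sets, TGFB1 (-0.13) and TGFBR1 (1.15) were read from another probe set.

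For SMAD genes and their regulators, those called higher, 5 of 14, numbered 3 with the 5th percentile subtracted or the replicate block, 2 at an adjusted p below 0.01 or at 1.5-fold, and 2 to 5 with 1 array left out; those called lower numbered 1 at 1.5-fold and 1 without _x_at and _s_at probe sets. The last setting gave 7 induced targets higher and 4 lower of 16, 0 repressed targets higher and 1 lower of 1 measured, and 1 activin gene lower. Activin genes called higher numbered 3 with the replicate block, 0 with probe sets averaged, at an adjusted p below 0.01 or at 1.5-fold, and 0 to 2 with 1 array left out; 1 was lower at 1.5-fold. Receptor regulators called lower numbered 1 at an adjusted p below 0.01, 0 at 1.5-fold and 1 to 2 with 1 array left out, and storage genes 1 to 2. The cause of these shifts was not tested. Activin genes called lower ran from 2 to 3 and probe sets from 6 to 9 with 1 array left out. SMAD2 lost its call in several settings, the replicate block among them (adjusted p = 0.0643).

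Replicate numbers are shared between the groups, but deviations of same-numbered arrays correlated at 0.07, 0.08 and 0.09, so the numbers were not taken as pairs, although each array correlated best with its own number. With the replicate block, 7 of the 10 genes were higher and 1 lower, and SMAD7 was not called (adjusted p = 0.0626). Values near the lowest intensity limit what can be measured for TGFB1, TGFB3 and the dim probe sets of SKIL.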
